A study of Mus musculus with 4 samples.

Results

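The adipocyte genes of the skin examined here were 10 genes: Adipoq, Lep, Plin1, Plin4, Cidec, Cidea, Ucp1, Fabp4, Pparg and Lipe. Every probe whose symbol in the platform annotation equalled a member was read, which gave 15 probes, and 9 of the 10 genes had a probe above the detection limit on at least 1 array. The whole series held 12729 such genes, out of 19057 named by at least 1 probe with a single symbol. Illumina bead arrays measured total RNA of dorsal skin from C57BL/6J mice, 8 to 12 weeks old, with 6 mice pooled per array and 1 array per group. The groups were skin of mice injected with IL-17A mini-circle DNA and given IMQ, with IL-17A mini-circle DNA alone, with GFP mini-circle DNA and IMQ, and with GFP mini-circle DNA alone, the last being the control. All 4 groups thus carried a mini-circle, a small circular DNA that expresses its insert without most of a plasmid backbone. IL-17A is an inflammatory cytokine, and IMQ is the usual short form of imiquimod, a Toll-like receptor agonist. The labels gave no dose, schedule or sex and did not say whether the injected DNA was expressed in the skin itself. With 1 pooled array per group no test was possible, so no p-value is given and higher and lower describe these 4 arrays.

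Fat cells lie in dorsal skin in 2 places, the dermal white fat around the hair follicles and the subcutaneous fat beneath the thin skin muscle, and RNA of whole skin cannot separate them. White adipocytes store triglyceride in a single large droplet coated with perilipins, release it as fatty acids by lipolysis, and secrete the hormones adiponectin and leptin. The nuclear receptor PPARG, acting with C/EBP transcription factors, drives their differentiation and many of their genes, while UCP1 marks the heat-producing brown and beige adipocytes. Dermal white fat is known to thicken as hair follicles grow and to thin as they rest. Several members are not limited to fat: Cidea and Pparg are also expressed in mouse sebaceous glands, and Fabp4 in capillary endothelium and macrophages.

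Promoter windows were printed for both adipocyte hormones, the main droplet coat gene and the master regulator, since these 4 genes stand for the secretory, storage and regulatory parts of the fat cell programme. Each runs 5′ to 3′ on the gene's own strand from 250 bases before to 50 bases after the start, in RefSeq's GRCm38.p6. Capitals mark matches to TTGCNNAA on either strand, a short C/EBP-type motif found in 10.8% of 32851 promoter windows of this length. The window of Adipoq was chr16:23146286-23146585 on the plus strand, that of Lep chr6:29059971-29060270 on the plus strand, that of Plin1 chr7:79732727-79733026 on the minus strand, and that of Pparg chr6:115421816-115422115 on the plus strand. The last is the downstream of 3 listed Pparg starts, which gives the adipocyte-rich PPARG2 form.
Adipoq: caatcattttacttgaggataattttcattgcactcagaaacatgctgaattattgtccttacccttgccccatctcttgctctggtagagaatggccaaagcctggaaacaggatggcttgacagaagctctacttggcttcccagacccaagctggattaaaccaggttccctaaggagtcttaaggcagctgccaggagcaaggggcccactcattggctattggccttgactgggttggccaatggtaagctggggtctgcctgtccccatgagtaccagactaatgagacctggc
Lep: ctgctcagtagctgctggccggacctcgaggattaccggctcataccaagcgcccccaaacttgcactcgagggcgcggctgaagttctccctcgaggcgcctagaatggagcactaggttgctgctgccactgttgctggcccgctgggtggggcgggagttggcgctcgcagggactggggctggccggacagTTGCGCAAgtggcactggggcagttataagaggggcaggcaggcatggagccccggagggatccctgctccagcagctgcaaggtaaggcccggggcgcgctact
Plin1: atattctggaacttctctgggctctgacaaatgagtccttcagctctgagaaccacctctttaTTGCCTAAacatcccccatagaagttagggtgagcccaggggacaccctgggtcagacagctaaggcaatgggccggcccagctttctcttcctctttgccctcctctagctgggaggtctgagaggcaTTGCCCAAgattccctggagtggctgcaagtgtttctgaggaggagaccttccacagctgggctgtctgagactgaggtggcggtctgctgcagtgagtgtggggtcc
Pparg: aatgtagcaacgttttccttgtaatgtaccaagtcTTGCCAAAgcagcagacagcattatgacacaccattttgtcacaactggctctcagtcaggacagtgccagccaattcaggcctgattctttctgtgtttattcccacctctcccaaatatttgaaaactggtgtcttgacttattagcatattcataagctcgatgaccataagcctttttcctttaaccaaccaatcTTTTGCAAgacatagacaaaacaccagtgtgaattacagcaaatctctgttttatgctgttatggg

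The Lep window held 1 match, TTGCGCAA, starting 55 bases before the start. The Plin1 window held 2, the nearer starting at 58 bases before the start, and the Pparg window held 2, one of them starting at 16 bases before the start. No match (0) lay in the Adipoq window. Also searched on both strands were TATAAA, present in 13.6% of windows, and a perfect PPAR response element, AGGTCA repeated with any 1 base between both copies, present in 0.0396%. Neither occurred in these 4 windows, so no matches of different motifs overlapped there. Windows of 8 of the 10 genes were searched. Chromosome 18, where Cidea lies, was left out of the search of member windows, and no window was listed for Fabp4. The matches describe letters, not bound sites.

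The 4 arrays were alike in overall signal, with median probe signals of 7.85 to 8.80 and mean signals of 273 to 312. The detection limit, the signal that 0.01 of an array's background noise would pass, lay between 11.6 and 12.7, and 45.2% to 45.8% of probes were above it. Deposited signals were not scaled between arrays, so differences are given on the normalized log2 scale, where 50 had been added to each signal before scaling, which shrinks differences of dim probes. Among the defining genes of fat, Adipoq, Lep, Plin1, Plin4, Cidec, Cidea, Pparg and Lipe were above the limit on all 4 arrays. The brown fat gene Ucp1 was below it on all 4, and the Fabp4 probe was above it on 2.

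Adipoq, which encodes adiponectin, was nearly level under the main normalization. Its deposited signals were 3761 in IL-17A skin with IMQ, 3878 in skin with IL-17A alone, 3476 in GFP skin with IMQ and 4258 in GFP skin. After normalization these became log2 values of 11.98, 11.88, 11.92 and 11.95 in the same order of groups, a range of 0.09. Adiponectin is an abundant, fat-restricted hormone, and no other of the 9 measured members spanned so little. From 57.8% to 90.9% of all genes lay at least as far apart as Adipoq in the 5 comparisons made. Whether fewer adipocytes or less RNA per adipocyte stand behind any lower value cannot be told apart in such bulk RNA.

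Lep, which encodes leptin, the hormone that reports fat stores, was highest in IL-17A skin without IMQ. Its signals were 1319 in IL-17A skin with IMQ, 1810 in skin with IL-17A alone, 1133 in GFP skin with IMQ and 1384 in GFP skin. The normalized log2 values were 10.47, 10.79, 10.35 and 10.42 in that order. IL-17A skin was thus 1.29-fold higher than GFP skin without IMQ and 1.09-fold higher under IMQ, and IMQ-treated IL-17A skin was 1.25-fold lower than untreated IL-17A skin. Of all genes, 14.2%, 58.8% and 8.18% lay at least as far apart in these comparisons. The IL-17A array alone stood off, and the other 3 lay within 0.12 of each other, the size of the IL-17A difference under IMQ.

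Pparg, the master regulator of fat cell differentiation, was lowest in GFP skin. The signals of its representing probe were 706 in IL-17A skin with IMQ, 641 in skin with IL-17A alone, 607 in GFP skin with IMQ and 553 in GFP skin. On the log2 scale these were 9.60, 9.38, 9.52 and 9.23. IMQ-treated skin was 1.17-fold higher than untreated skin among IL-17A arrays and 1.23-fold higher among GFP arrays, and skin with both treatments was 1.29-fold higher than GFP skin. At least as large a difference was found in 20.3%, 19.4% and 18.2% of genes. A second Pparg probe, above the limit on all 4 arrays, had log2 values of 6.81, 6.85, 7.08 and 6.78 in the same order. It was highest in GFP skin with IMQ, so under IMQ both probes disagreed on the side of the IL-17A difference, with -0.27 for the second probe and 0.08 for the first. For IMQ in IL-17A skin the second probe had -0.04 against 0.22 for the first. For both treatments against neither it had 0.03 against 0.37, while for IMQ in GFP skin both probes had 0.30. The third Pparg probe was below the limit on all arrays.

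**Figure D1:**
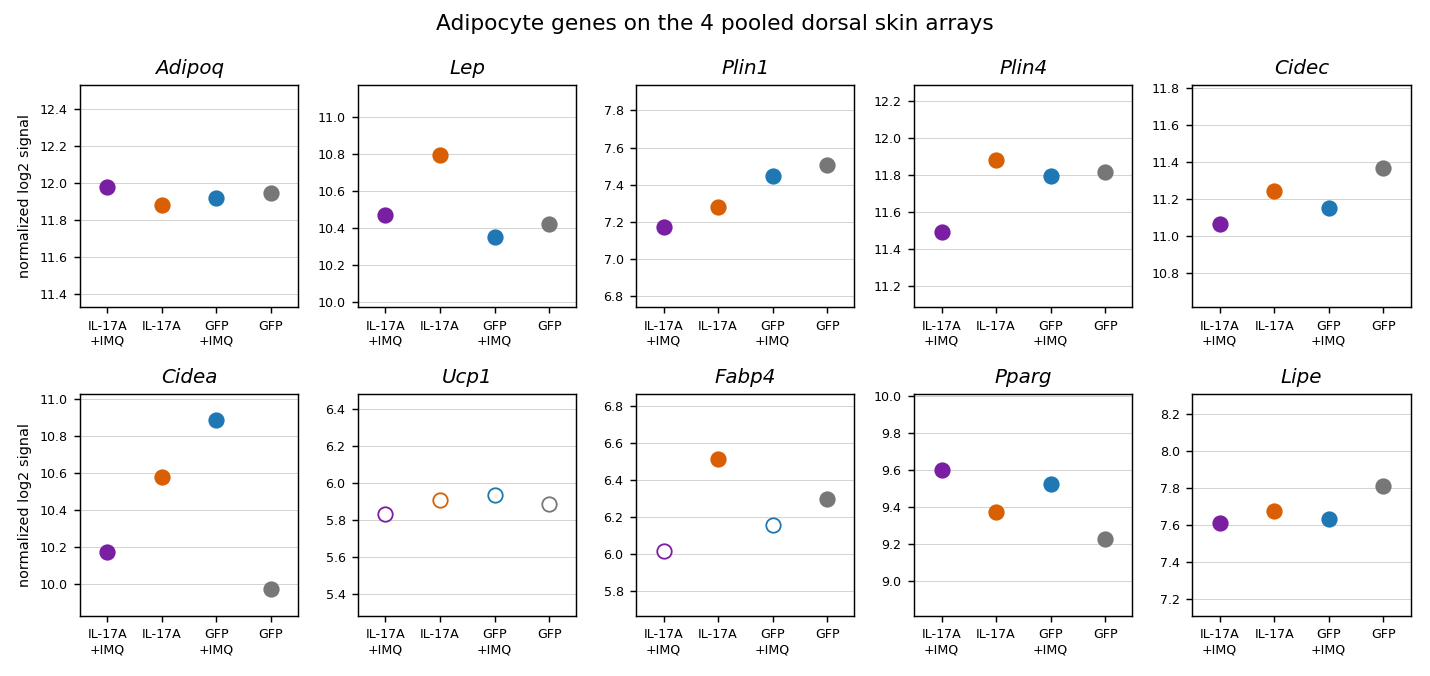
Normalized log2 signal (y axis) of the probe representing each of the 10 adipocyte genes on the 4 pooled arrays (x axis, 1 point per array), with every panel spanning the same height. Filled points are above the detection limit and open points are not. Adipoq spans 0.09, Cidea 0.91, and Ucp1 is open on all 4 arrays.

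Genes of the droplet surface gave small differences apart from Cidea. Plin1, the perilipin that guards the adipocyte droplet from lipases, had signals of 78.1 in IL-17A skin with IMQ, 95.2 in skin with IL-17A alone, 100.8 in GFP skin with IMQ and 123 in GFP skin. Its log2 values of 7.17, 7.28, 7.45 and 7.50 put both IL-17A arrays below both GFP arrays. The IL-17A arrays were 1.17-fold lower without IMQ and 1.21-fold lower under IMQ, where 33.2% and 24.5% of all genes were at least as far apart. The other Plin1 probe was below the limit on every array.

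Plin4, a perilipin that coats small and growing droplets, was lowest with both treatments. Its signals were 2734 in IL-17A skin with IMQ, 3860 in skin with IL-17A alone, 3178 in GFP skin with IMQ and 3832 in GFP skin, and its log2 values 11.49, 11.88, 11.79 and 11.81. The first of these stood apart and the other 3 were close. IL-17A skin was 1.31-fold lower with IMQ than without it, a difference reached by 4.64% of all genes in that comparison.

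Cidec, which fuses droplets into the large single droplet of white adipocytes, had signals of 2019, 2508, 2020 and 2731 in IL-17A skin with IMQ, IL-17A skin, GFP skin with IMQ and GFP skin. The log2 values were 11.07, 11.24, 11.15 and 11.37. GFP skin was the highest, and skin with both treatments was 1.23-fold lower than it, as far apart as 25.6% of genes.

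Lipe, which encodes hormone-sensitive lipase, had signals of 128 in IL-17A skin with IMQ, 148 in skin with IL-17A alone, 124 in GFP skin with IMQ and 165 in GFP skin. Its log2 values of 7.61, 7.67, 7.63 and 7.81 spanned 0.20, with GFP skin highest. Another Lipe probe, matched to a different transcript and above the limit on 3 arrays, ran the other way with IL-17A, at signals of 30.9 and 26.6 on the IL-17A arrays with and without IMQ against 10.9 and 13.0 on the GFP arrays with and without IMQ. Its log2 difference was 0.34 under IMQ and 0.24 without it, where the representing probe had -0.02 and -0.13. The third Lipe probe was below the limit throughout.

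Fabp4, the fatty acid carrier of adipocytes, was hardly measured. Its single probe had signals of 0.22 in IL-17A skin with IMQ, 27.5 in skin with IL-17A alone, 6.55 in GFP skin with IMQ and 15.3 in GFP skin, with limits of 11.8, 12.6, 11.6 and 12.7. Both arrays without IMQ were above the limit and both with IMQ were not well above background. IL-17A skin was 1.16-fold higher than GFP skin without IMQ. IMQ-treated skin was below untreated skin by at least 1.19-fold among IL-17A arrays and at least 1.03-fold among GFP arrays. So dim a probe carries little about a transcript. Of the other cells that use Fabp4, 9 capillary endothelial markers above the limit had summed normalized signals of 3585, 3520, 3773 and 3573, level across the arrays. Those of 9 macrophage markers were 12089, 12734, 20760 and 31796 in the same order of groups, highest in GFP skin. The part of either cell type in the Fabp4 values was not tested.

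Ucp1, the uncoupling protein of heat-producing adipocytes, had signals of -7.22, -4.66, -2.76 and -5.56 in IL-17A skin with IMQ, IL-17A skin, GFP skin with IMQ and GFP skin. All were below 0 after the background subtraction in the deposited table. No difference can be read between them, and with these pools Ucp1 was not detectable on any array.

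Cidea stood apart from the other members. It encodes a droplet protein related to that of Cidec, used in brown fat, in beige fat and in the sebaceous gland. Its signals were 1067 in IL-17A skin with IMQ, 1547 in skin with IL-17A alone, 1674 in GFP skin with IMQ and 983 in GFP skin. The log2 values were 10.17, 10.58, 10.89 and 9.97, so each treatment alone went with a higher value, and the combination lay closer to GFP skin than either treatment alone. IL-17A skin was 1.52-fold higher than GFP skin without IMQ and 1.64-fold lower than GFP skin under IMQ. IMQ-treated skin was 1.33-fold lower than untreated skin among IL-17A arrays and 1.88-fold higher among GFP arrays. By size these were ranks 640, 351, 482 and 126 of 12729 genes, while skin with both treatments was 1.15-fold higher than GFP skin, at rank 5559. Cidea had a single probe and was singled out after its values were seen.

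In each comparison the count of members at least 2-fold apart was 0. For IL-17A against GFP skin without IMQ, 0 of 9 were higher and 0 lower, where 0.841% of all 12729 genes were higher and 0.99% lower. The members' median log2 difference was 0.06, with 4 of 9 below 0, and that of all genes 0.01. For IMQ against none in GFP skin the background was 0.416% higher and 0.283% lower. The members' median there was -0.06 against 0.00 over all genes, with 7 of 9 members below 0. For IL-17A against GFP skin under IMQ the background was 1.06% higher and 0.283% lower, with a members' median of -0.09 and 6 of 9 below 0. For IMQ against none in IL-17A skin it was 0.165% and 0.0786%, with a members' median of -0.18 and 7 of 9 below 0. For both treatments against neither it was 1.41% and 1.19%, with a members' median of -0.20, 5 of 9 below 0. Counts of 0 out of 9 lie near these backgrounds and are no result about fat genes as such. Every array stood in several of these comparisons, so their differences share values.

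At 1.5-fold, Cidea alone passed. It was higher in IL-17A than in GFP skin without IMQ, where 2.13% of genes were higher and 3.19% lower. It was higher with IMQ in GFP skin, where 1.55% were higher and 2.06% lower. It was lower in IL-17A than in GFP skin under IMQ, where 2.52% were higher and 1.87% lower. For IMQ in IL-17A skin 0 members passed, against a background of 0.966% higher and 0.212% lower, and for both treatments against neither 0 passed, against 3.47% and 3.98%. The members' median size of difference, regardless of sign, was 0.15, 0.14, 0.12, 0.22 and 0.28 in the 5 comparisons in the order above, against 0.15, 0.14, 0.15, 0.12 and 0.17 over all genes. It was near that of all genes in the first 3 comparisons and above it for IMQ in IL-17A skin and for both treatments. In IL-17A skin, IMQ-treated skin was lower for Lep, Plin4 and Cidea, with log2 differences of -0.32, -0.39 and -0.41, all beyond the 5th percentile of all genes, -0.29.

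**Figure D2:**
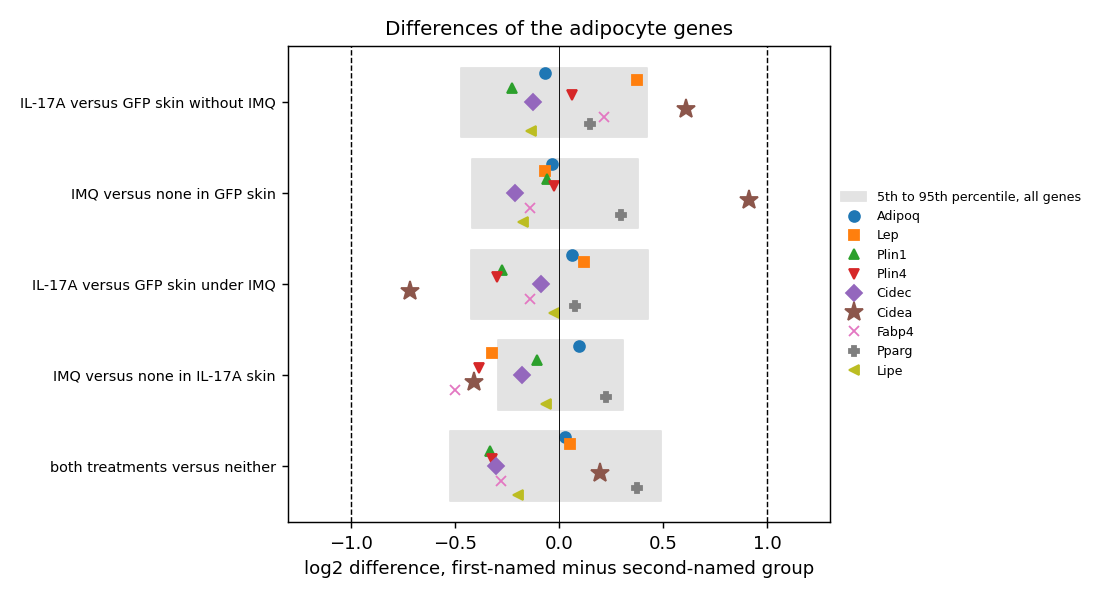
Log2 differences (x axis) of the 9 members above the limit in the 5 comparisons (rows), with the grey bars from the 5th to the 95th percentile of 12729 genes and dashed lines at 2-fold. Cidea lies outside the bar in 4 rows, at 0.61, 0.91, -0.71 and -0.41, with Lep and Plin4 also outside it for IMQ in IL-17A skin. The Fabp4 cross in that row rests on an array below the limit, and no member reaches a dashed line.

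Whether the IL-17A difference depended on IMQ was read from the difference of differences, the IL-17A minus GFP value under IMQ less that without IMQ. For Cidea it was -1.32, rank 51 of 12729 genes by size, with 0.401% of genes as far from 0. The other 8 members lay between -0.36 (Plin4) and 0.13 (Adipoq), inside the range of -0.48 to 0.53 that held the 5th to 95th percentile of all genes. Fabp4 was also at -0.36, with both IMQ arrays below the limit. The median was -0.07 with Cidea and -0.06 without it, against -0.01 over all genes.

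Some markers of the sebaceous gland, the lipid-secreting gland of the hair follicle, shared part of Cidea's pattern. Fa2h, a fatty acid hydroxylase, was 1.54-fold higher in IL-17A than in GFP skin without IMQ, 1.83-fold higher with IMQ in GFP skin and, at a log2 difference of -0.59, lower in IL-17A than in GFP skin under IMQ. Krt79, a keratin of the sebaceous duct, had log2 differences of 0.42, 0.61 and -0.30 in these comparisons, and Dgat2l6, an acyltransferase gene, 0.46, 0.74 and -0.19. The fatty acid elongase gene Elovl3 differed under IMQ, with 0.98, 0.91 and 0.11. The melanocortin receptor gene Mc5r ran the other way, with -0.21, -0.23 and 0.04. Plin2 had 0.13, 0.36 and -0.35, Awat2 -0.00, 0.27 and -0.27, and Scd3, above the limit on 3 arrays, 0.22, 0.18 and 0.03. Of 11 markers listed, 8 were above the limit, and Awat1 and Far2 were not above it. Their difference of differences was below 0 in 7 of 8, with a median of -0.56 against -0.01 over all genes. The share of all genes below 0 is not given here, so the count is no result about these markers. Their summed normalized signals were 11482 in IL-17A skin with IMQ, 12724 in skin with IL-17A alone, 14673 in GFP skin with IMQ and 9251 in GFP skin, in the same order from high to low as Cidea. Krt79 and Fa2h, at log2 values of 13.16 and 11.96 in GFP skin with IMQ, weigh most in these sums. Of 6 keratinocyte markers above the limit, Krt1, Krt5 and Trp63 were also highest in GFP skin with IMQ and lowest in GFP skin. Their IL-17A differences under IMQ were -0.06 each, and Krt10, Krt14 and Lor were not lowest in GFP skin. The part of sebaceous glands in the Cidea values was not tested.

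**Figure D3:**
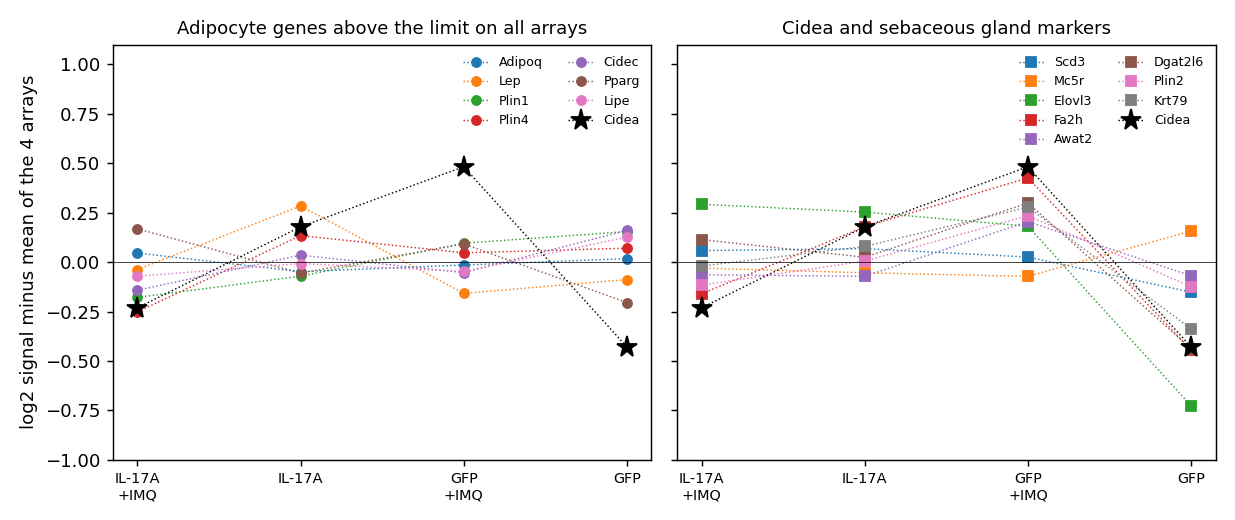
Log2 signal minus each gene's mean over the 4 arrays (y axis) for the 8 adipocyte genes above the limit on all arrays (left) and for Cidea beside the 8 sebaceous gland markers above the limit (right). Dotted lines only join the points of a gene. Cidea peaks in GFP skin with IMQ and is lowest in GFP skin, as Fa2h and Krt79 are, while Adipoq stays near 0.

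In the wider fat pathway, 0 or 1 gene of each list was at least 2-fold apart in a comparison, which lies near the all-gene shares of 0.0786% to 1.41% per direction given above and is no result about these lists. Of 20 droplet and lipolysis genes, 18 were above the limit and 0 passed in any comparison, with medians from -0.17 to 0.02. Mgll, monoglyceride lipase, had log2 differences of 0.37 for IL-17A without IMQ, 0.54 for IMQ in GFP skin and -0.26 for IL-17A under IMQ. G0s2, an inhibitor of the triglyceride lipase, had -0.27, -0.78 and 0.31, and was thus 1.71-fold lower with IMQ in GFP skin. Plin5, a perilipin that ties droplets to mitochondria, was at -0.51 for IL-17A under IMQ.

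Among 22 genes of fatty acid uptake and triglyceride synthesis, 19 were above the limit and 1, Fabp5, was at least 2-fold higher. Fabp5, the fatty acid carrier of the epidermis and also of fat, was 2.11-fold higher in IL-17A than in GFP skin under IMQ and 2.61-fold higher with both treatments than with neither. Gpd1, which makes the glycerol backbone of triglyceride, was 1.61-fold higher in IL-17A than in GFP skin under IMQ, with a log2 difference of 0.05 without IMQ. Srebf1, a regulator of lipid synthesis, was 1.49-fold higher in IL-17A than in GFP skin under IMQ, and the elongase gene Elovl6 was at 0.58 for IL-17A without IMQ. Cd36 and Acaca had no probe above the limit.

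Of 10 adipokines and secreted proteins, 6 were above the limit and 0 were at least 2-fold apart. Angptl4, a fasting-induced inhibitor of lipoprotein lipase and a PPAR target, had log2 differences of 0.65 for IL-17A without IMQ, 0.78 for IMQ in GFP skin and -0.72 for IL-17A under IMQ, values close to those of Cidea. Its difference of differences was -1.37. Rbp4, the retinol-binding protein, was at 0.48 for IL-17A under IMQ. Retn, which encodes resistin, was above the limit on 1 array only.

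All 13 adipogenic transcription factors listed were above the limit, and 0 were at least 2-fold apart. Cebpb, an early factor of adipogenesis that is also induced in inflammation, was 1.48-fold higher in IL-17A than in GFP skin without IMQ. Cebpa, which acts later with PPARG, was 1.34-fold lower in IL-17A skin under IMQ, and the coactivator gene Ppargc1b 1.38-fold higher with both treatments than with neither.

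Of 16 thermogenic genes, 11 were above the limit and 1, Elovl3, was 2.03-fold higher with both treatments than with neither. Elovl3 stands in both the thermogenic and the sebaceous lists. Tbx1, used as a beige fat marker, had 0.64 for IL-17A without IMQ and 0.38 under IMQ. Cox7a1, a mitochondrial subunit of brown fat and muscle, was 1.41-fold lower in IL-17A skin under IMQ.

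In the insulin action list 8 of 11 genes were above the limit and 0 were at least 2-fold apart. Slc2a4, the insulin-dependent glucose transporter of fat and muscle, was 1.46-fold lower in IL-17A than in GFP skin without IMQ, 1.42-fold lower with IMQ in GFP skin and 1.61-fold lower with both treatments. Irs2, an insulin receptor substrate, was at 0.46 for IL-17A under IMQ, and the transcription factor gene Foxo1 at -0.29 for IL-17A without IMQ. Trarg1, a trafficking partner of that transporter, was above the limit on 2 arrays.

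Among 11 hormone receptor genes, 7 were above the limit and 0 were at least 2-fold apart. The natriuretic peptide receptor gene Npr3 was 1.59-fold higher in IL-17A skin without IMQ, and the prostaglandin receptor gene Ptger3 1.47-fold higher. The adiponectin receptor gene Adipor2 and the fatty acid receptor gene Ffar4 were at -0.20 each for IL-17A under IMQ. The leptin receptor gene Lepr had 2 probes and none above the limit.

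Markers of neighbouring tissues gave a frame for the fat genes. The summed normalized signal of the 9 measured adipocyte genes was 12811 in IL-17A skin with IMQ, 14388 in skin with IL-17A alone, 14069 in GFP skin with IMQ and 13659 in GFP skin. That of 9 skeletal muscle genes was 151841, 161839, 149005 and 155101 in the same order. That of 8 adipocyte progenitor markers was 5394, 4927, 4492 and 7416, highest in GFP skin. Pi16, a gene of early progenitors at a log2 value of 11.88 in GFP skin, weighs most in these sums. Among these markers Cd34 was 2.16-fold lower in IL-17A than in GFP skin without IMQ and 2.54-fold lower with IMQ in GFP skin. Pi16 was 1.57-fold and 1.88-fold lower. Dlk1, Icam1 and Zfp423, also on that list and the last above the limit on 1 array only, were at 0.02, -0.08 and -0.12 for IL-17A without IMQ and at -0.06, -0.13 and 0.07 for IMQ in GFP skin. Sums of 7 fibroblast markers, which share Pdgfra with the progenitor list, were 22188, 19891, 22105 and 27875, again highest in GFP skin. Dcn, at a log2 value of 14.03 in GFP skin, weighs most in the fibroblast sums. Fbln1, at 0.19 for IL-17A without IMQ, was the 1 fibroblast marker above 0 there. For both treatments against neither the median log2 difference was -0.20 for the adipocyte genes, -0.26 for the progenitor markers and -0.66 for the fibroblast markers. For IL-17A against GFP skin without IMQ these medians were 0.06, -0.34 and -0.70. The lists were not tested against each other. For 10 hair growth genes the sums were 28143, 16178, 8097 and 931, with 2 of 10 above the limit in GFP skin and all 10 on the other arrays. Over the same arrays the 9 measured adipocyte genes spanned from 0.09 (Adipoq) to 0.91 (Cidea) on the log2 scale. A link between the fat genes and hair growth was not tested.

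By likeness over the 4 arrays, the genes nearest to the mean pattern of the 8 members measured on all arrays were Prrg2, Sox12, Atp6v1b1, B3galt5 and Tk1. That pattern spanned 0.14 on the log2 scale, and 9054 genes that spanned at least as much were compared. With Cidea left out, a choice made after its values were seen, the mean pattern spanned 0.11. The nearest genes were then others, namely Brdt, Mapkapk2, Zranb3, Arfrp1 and Slc12a7, so the first list depends on Cidea. Nearest to Cidea alone, among 379 genes of at least its range, were N4bp3, Pamr1, Panx3, Mir205hg and Foxc1, with a Pearson correlation of 0.97 for the first and 0.86 for the last. The pattern of Cidea was taken for this after its values were seen, and 4 points per gene make all these lists descriptions of these arrays.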

How the data were processed

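The submitters deposited 2 tables of the same 4 arrays. The deposited intensity table held a linear signal per probe for 45281 probes, with a background already subtracted, since 32.3% to 33.7% of signals were below 0. The program behind it is not named in the labels or file headers. The deposited log2 table held the authors' normalized values, with column medians of 4.82 to 4.83, by a method the labels and headers do not name, and served as an alternative. RNeasy extraction and MessageAmp labelling are stated per the labels' protocols.

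Here, signals were corrected with normexp (offset 50) and quantile-normalized in limma 3.58.1 under R 4.3.3, and log2 was taken last. The files held no detection p-values, so the limit was taken from the signals below 0, as the level that a share of 0.01 of symmetric noise exceeds. For each gene the brightest probe on average, of those above the limit on at least 1 array, was used, and the gene was called at 2-fold where the brighter array was above its limit. Symbols came from the platform annotation: 34885 probes had 1 symbol, 18 several and 10378 none. The calling code was run on simulated log2 values with set changes, which tests neither the normalization nor the results. Promoter sequences are RefSeq's (GRCm38.p6). Counts and figures used Python 3.11.15 with pandas 2.3.3.

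All 10 members are named, with up to 4 genes of each list that had the largest difference in any comparison. The members and lists were chosen with earlier results of these data known. Where an array was below its limit, the fold is a lower bound, set against the probe's own level or that array's lowest detected level, whichever was higher. The number of arrays limits the precision. Alternatives covered the offset, background, scaling, the authors' values, probe choice, threshold, filter and limit.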

Additional observations from a re-analysis of the deposited data

Results flagged for a closer look

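In 6 of the genes named above, the IL-17A difference had opposite signs without and under IMQ. It was at least 1.2-fold on each side, with every array above its limit. The difference was not tested, since each group had 1 array. For Cidea the difference of differences was -1.32, from -0.71 under IMQ and 0.61 without it. For Angptl4 it was -1.37, from -0.72 under IMQ and 0.65 without it. For G0s2 it was 0.58, from 0.31 under IMQ and -0.27 without it. For the sebaceous markers Fa2h and Krt79 it was -1.21 and -0.71, from -0.59 and -0.30 under IMQ and 0.62 and 0.42 without it. For the progenitor marker Pi16 it was 1.19, from 0.54 under IMQ and -0.65 without it. Markers of other cells met the same rule. The muscle gene Myh1 was at -0.48 without IMQ and 0.50 under IMQ. The mast cell genes Cpa3, Tpsb2, Cma1 and Mcpt4 were at -0.32, -0.41, -0.29 and -0.50 without IMQ. Under IMQ they were at 0.95, 1.01, 0.79 and 0.70. Kit and Hdc, also on the mast cell list, were above 0 both without and under IMQ. The share of all genes that met the rule is not given here, so the count is no result about fat or sebaceous genes. Chance alone gives opposite signs in many genes, so the sign change by itself carries little.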

How the results depend on the processing

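No paired analysis was possible because each group had 1 array, and for the same reason no array could be left out. The count of members at least 2-fold apart, 0 in all 5 comparisons, moved to 1 in few settings. It was 1 lower for IMQ in IL-17A skin, with no further background correction and with the authors' values, in both cases Fabp4, at -1.43 and -1.20 on the log2 scale, with its IMQ array below the limit. At a threshold of 1.5-fold it was 1 higher for IL-17A without IMQ, 1 higher for IMQ in GFP skin and 1 lower for IL-17A under IMQ, each time Cidea. The other settings, namely offset 16, median scaling, the mean of a gene's probes, a 3-fold threshold, the stricter and the absent filter, a noise share of 0.05 and, chosen after seeing the data, leaving out Cidea, gave 0. The members' median log2 difference ranged over the settings from -0.00 to 0.07 for IL-17A without IMQ, from -0.22 to -0.05 for IMQ in GFP skin, from -0.10 to -0.01 for IL-17A under IMQ, from -0.28 to -0.14 for IMQ in IL-17A skin and from -0.29 to 0.03 for both treatments against neither. Cidea kept its sign in every comparison and setting that included it, with a difference of differences from -1.39 to -1.27. Signs of smaller differences turned in some settings: Lipe in 4 of the comparisons, Lep and Pparg in 1 each, and Adipoq in 2. Adipoq ranged from -0.14 to 0.03 for both treatments against neither. For IMQ in GFP skin it ranged from -0.24 to -0.03, so its level values depend on the scaling. Pools of 6 mice hide the spread between mice, and dim probes such as those of Fabp4, Ucp1 and Plin1 limit what can be said of those genes.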
